A study of Saccharomyces cerevisiae with 6 samples.

Results

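Arginine synthesis was followed through 9 genes of the pathway in the budding yeast Saccharomyces cerevisiae: ARG1, ARG2, ARG3, ARG4, ARG5,6, ARG7, ARG8, CPA1 and ORT1. They were picked by name, and each was measured by the single array probe annotated to its open reading frame, so they are 9 of the 6225 gene identifiers on the array. RNA came from 3 untreated and 3 glycolaldehyde-treated cultures of strain BY4743, with 1 single-colour Agilent array for each sample. Treated cells were exposed for 4 h, without shaking and at 30 °C, to 10 mM glycolaldehyde, a small reactive hydroxyaldehyde, in medium with 2% glucose, and untreated cells were handled alike without it. The labels say that RNA was prepared from 3 independent starter cultures. The question is how glycolaldehyde exposure relates to the levels of these transcripts.

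Yeast makes arginine from glutamate. Acetylated intermediates are built in the mitochondrion up to ornithine, which a carrier exports, and cytosolic enzymes join ornithine with carbamoyl phosphate and aspartate to give arginine. Many genes of the pathway are activated by Gcn4, the general activator of amino acid synthesis genes, and a complex of Arg80, Arg81 and Mcm1, which needs Arg82, represses several of them when arginine is plentiful and raises the genes of arginine breakdown. The supply of arginine therefore matters for these genes. The labels call the medium synthetic minimal in one entry and SC, a complete medium, in another, so whether arginine was added is not known. Other entries conflict as well. The culture is given as static and as anaerobic, and the strain, known as a diploid, is entered as haploid.

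The free-text descriptions give the opposite treatment to the titles and treatment entries for all 6 samples, and the titles were followed here. Under the descriptions every fall below would be a rise of the same size, and every rise a fall. The deposited files are also at odds over the link between arrays and samples. Each sample's column in the authors' table could be matched, by equal values, to 1 scanner file. In 3 of the 6 cases the matching file had been attached to a different sample. By group, 4 arrays are the same in both records, namely untreated replicates 1 and 2 and glycolaldehyde replicates 2 and 3, and 2 arrays change group. The values below follow the columns of the value table, and the other record is given beside them. Replicates 3 of both groups were on a slide of their own, scanned on a second day, and their arrays were brighter than the rest: the column medians were 4612 and 5055, against 3307 to 3545 on scan day 1. Per array 94.8% to 97% of the 6256 yeast probes were well above background. Probes for HIS3, LEU2 and URA3, which are deleted in BY4743, were well above background on 0 of the 6 arrays. The 6 marker genes of a and alpha cells (MFA1, MFA2, STE2, MF(ALPHA)1, MF(ALPHA)2 and STE3) were well above background on all 6 arrays, at 0.00749 to 0.0621 of the array's 75th percentile. The same held for the 4 haploid markers, at 0.174 to 0.252 for STE4, 0.0876 to 0.118 for RME1, 0.0248 to 0.0303 for FUS3 and 0.0167 to 0.0257 for STE18. Ploidy was not settled from these signals.

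With glycolaldehyde, arginine synthesis transcripts were lower at nearly every step. Of the 9 genes, 8 fell, 0 rose and 1, ARG8, did not pass the test (limma across all tested genes, two-sided, Benjamini-Hochberg adjusted p under 0.05). Of all 5944 genes tested, 23.5% were called lower and 29.6% higher. The falls ran from 5.93-fold for ARG1, which makes argininosuccinate, down to 1.16-fold for ARG2, the first enzyme of the pathway. The median log2 change of the 9 genes was -1.11, against 0.03 over all tested genes. All 9 probes were well above background on all 6 arrays, with table intensities from 508 to 116012, so no gene entered the test through one group alone. The 7 spots of a member's probe varied with a coefficient of variation of 1.31% to 6.76% on an array. In bulk RNA, a lower signal per cell and fewer cells making the transcript cannot be told apart.

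**Figure D1:**
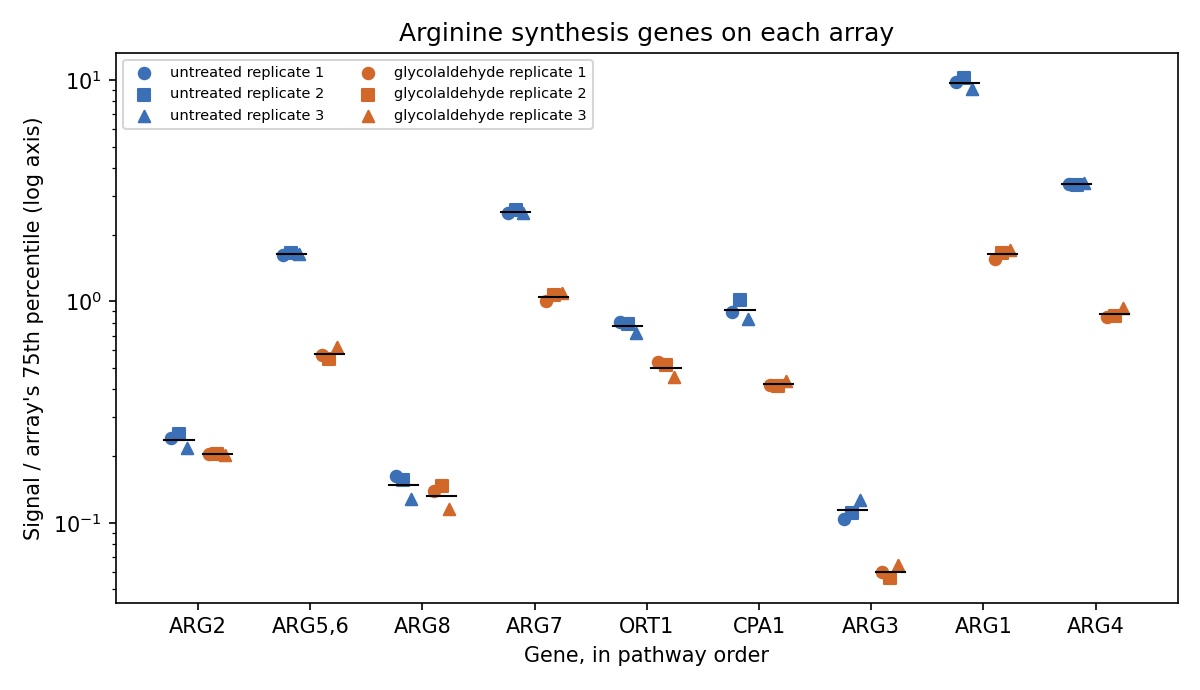
Signal of each arginine synthesis gene on each of the 6 arrays, as a multiple of the array's 75th percentile (log axis), with genes in pathway order; symbols are replicates, colours are groups and black bars are group means of the log2 values. The 2 groups are apart for every gene except ARG8, and the gap is widest for ARG1.

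Signals below are multiples of the array's 75th percentile, called relative signals, and describe 1 probe across arrays; levels of different genes are not compared, since probes differ in brightness. Changes are differences of mean log2 relative signal, glycolaldehyde minus untreated, with limma's moderated standard error (SE) and n = 3 per group.

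Among the mitochondrial steps, ARG2 encodes acetylglutamate synthase, which opens the pathway. Its relative signal was 0.241, 0.252 and 0.217 in untreated replicates 1 to 3 and 0.204, 0.205 and 0.202 in glycolaldehyde replicates 1 to 3. The groups did not overlap, but untreated replicate 3 lay close to the treated arrays. ARG2 fell by 0.21 ± 0.07 on the log2 scale (adjusted p = 0.0273 in limma). The call was lost on leaving out untreated replicate 1 (log2 change -0.20, adjusted p = 0.0887 in limma), untreated replicate 2 (-0.17, 0.0987), glycolaldehyde replicate 1 (-0.22, 0.0749), glycolaldehyde replicate 2 (-0.22, 0.0737) or glycolaldehyde replicate 3 (-0.21, 0.056), and without scaling between arrays (-0.23, 0.818).

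ARG5,6 encodes a precursor that is cut into the next pair of enzymes, acetylglutamate kinase and acetylglutamyl-phosphate reductase. Its relative signal was 1.62, 1.65 and 1.64 on the untreated arrays and 0.573, 0.551 and 0.622 on the treated ones. The untreated arrays lay within a narrow band far above all treated arrays. The change was -1.49 ± 0.06 on the log2 scale, or 2.81-fold (adjusted p = 3.16e-06 in limma), the largest fall among the mitochondrial steps.

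ARG8, acetylornithine aminotransferase, was the exception. Its relative signal was 0.162, 0.156 and 0.128 without the aldehyde and 0.139, 0.146 and 0.115 with it. The groups overlapped, and replicate 3 was the lowest array of each group. The change was -0.15 ± 0.12 on the log2 scale, with a 95% interval from -0.43 to 0.12 (adjusted p = 0.309 in limma). With the replicate number as a block the same change passed (adjusted p = 0.0286), as it did with scan day as a block (0.0127) and within scan day 1 (0.0249). It did not pass with slide as a block (0.0628) or within slide 2 (0.129). Leaving out 1 array moved the log2 change of ARG8 to -0.05 without glycolaldehyde replicate 3, to -0.09 without untreated replicate 1 and to -0.26 without untreated replicate 3, with no call in any of the 3 (adjusted p = 0.721, 0.633 and 0.0712 in limma). All 9 genes were thus called lower with the replicate block, where 29.1% of all tested genes were.

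ARG7, the mitochondrial ornithine acetyltransferase that recycles the acetyl group, had relative signals of 2.52, 2.60 and 2.51 on the untreated arrays. The treated arrays gave 1.00, 1.06 and 1.09. There was no overlap, and both groups were tight. It fell by 1.27 ± 0.06 on the log2 scale, or 2.42-fold (adjusted p = 4.01e-06 in limma).

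ORT1 encodes the carrier that moves ornithine out of the mitochondrion. Relative signals were 0.805, 0.792 and 0.721 in untreated cells and 0.530, 0.515 and 0.455 in treated cells. Each replicate 3 was again the lowest of its group, and the groups stayed apart. ORT1 fell by 0.63 ± 0.08 on the log2 scale, or 1.55-fold (adjusted p = 0.000437 in limma). Without scaling between arrays the change was -0.64 but did not pass (adjusted p = 0.171).

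In the cytosol, CPA1 encodes the small subunit of the arginine-specific carbamoyl-phosphate synthetase. The untreated arrays gave relative signals of 0.896, 1.01 and 0.836, and the treated arrays 0.420, 0.415 and 0.437. All untreated arrays were above all treated ones, with the wider spread among the untreated. CPA1 fell by 1.11 ± 0.08 on the log2 scale, or 2.15-fold (adjusted p = 3.73e-05 in limma).

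ARG3, ornithine carbamoyltransferase, joins carbamoyl phosphate to ornithine. Its relative signals were 0.105, 0.111 and 0.127 without glycolaldehyde and 0.0600, 0.0566 and 0.0643 with it. The groups were apart. The change was -0.92 ± 0.09 on the log2 scale, or 1.89-fold (adjusted p = 0.000133 in limma).

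The last steps carried the largest falls. ARG1, argininosuccinate synthetase, had relative signals of 9.81, 10.2 and 9.11 on the untreated arrays and 1.56, 1.65 and 1.71 on the treated ones. Its change of -2.57 ± 0.07 on the log2 scale (adjusted p = 4.29e-07 in limma) ranked 3 among the falls of all 5944 tested genes. ARG4, argininosuccinate lyase, releases arginine in the final reaction. Its relative signals were 3.39, 3.35 and 3.41 in untreated cells and 0.852, 0.863 and 0.929 in treated cells. ARG4 fell by 1.94 ± 0.06, or 3.85-fold (adjusted p = 5.28e-07 in limma), and ranked 14. The groups of both genes were far apart on every array.

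**Figure D2:**
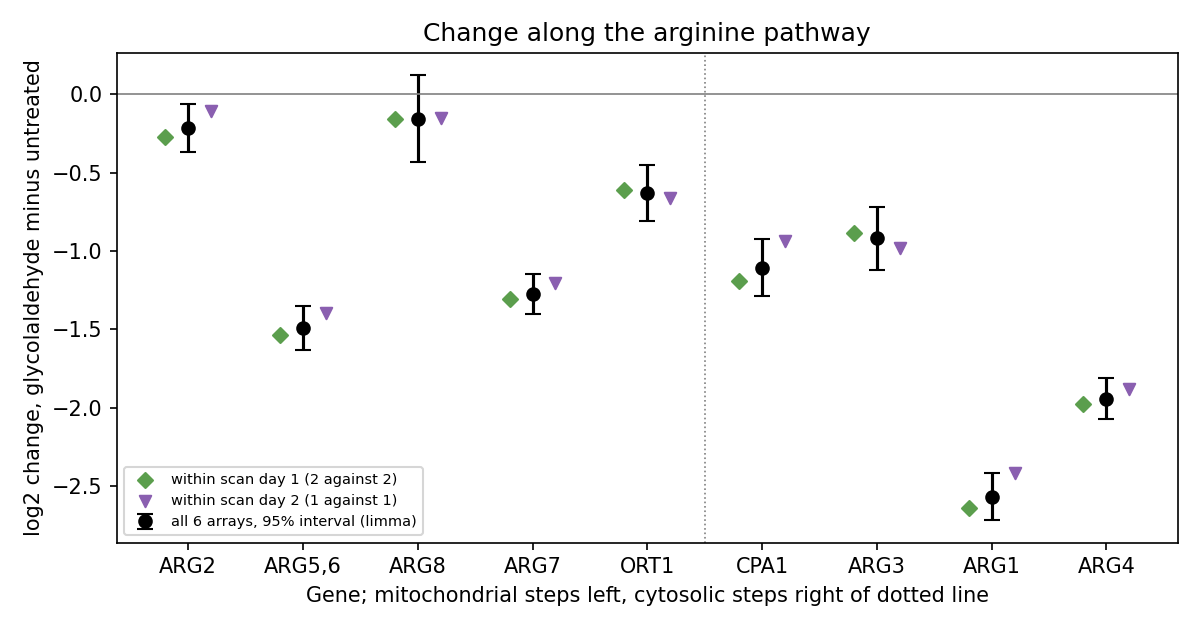
The log2 change of each gene (glycolaldehyde minus untreated) in pathway order, with limma's 95% interval over all 6 arrays, and the changes within each scan day beside it. The cytosolic genes lie between -0.92 and -2.57 and the mitochondrial ones between -0.15 and -1.49.

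The size of the fall varied along the pathway. All 4 cytosolic genes fell, with a median log2 change of -1.52, and for 3 of them the fall was 2-fold or more. Of the 5 mitochondrial genes 4 fell, with a median of -0.63 over the 5, and 2 fell 2-fold or more. Together 5 of the 9 fell 2-fold or more, as did 1.82% of all tested genes. The groups did not overlap, with every treated array lower, for 8 of the 9 genes and for 27.1% of all tested genes. From the largest to the smallest fall the order was ARG1, ARG4, ARG5,6, ARG7, CPA1, ARG3, ORT1, ARG2 and ARG8.

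For each of the 8 neighbouring pairs in this order the log2 ratio of both genes was taken on every array and compared between groups. Since the order came from these same changes, the differences are a description with no test. The change of ARG1 differed from that of ARG4 by -0.63 ± 0.06 (SE over arrays, n = 3 per group), that of ARG4 from ARG5,6 by -0.45 ± 0.03, that of ARG5,6 from ARG7 by -0.22 ± 0.05, and that of ORT1 from ARG2 by -0.41 ± 0.07. For the remaining pairs the ratios overlapped between groups, which with n = 3 per group does not show that their changes were equal. The 95% intervals of their differences were -0.37 to 0.04 for ARG7 and CPA1, -0.60 to 0.23 for CPA1 and ARG3, -0.78 to 0.20 for ARG3 and ORT1, and -0.38 to 0.26 for ARG2 and ARG8.

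By the value table both scan days held both groups, and each gave the same direction for all 9 genes. With the scanner files as attached, both arrays of scan day 2 belong to glycolaldehyde samples. In that record no comparison within scan day 2 is possible. Within scan day 1 (2 arrays against 2) the median change was -1.19, and within scan day 2 (1 against 1, with no test) it was -0.98. The order of the genes was the same on both days except that CPA1 changed places with ARG3, and ARG2 with ARG8. CPA1 differed most between days, with a log2 change of -1.19 on day 1 and -0.94 on day 2. For ARG1 the values were -2.64 and -2.42, for ARG4 -1.98 and -1.88, and for ARG5,6 -1.54 and -1.40. For ARG2 the change on day 2 was -0.11, against -0.27 on day 1.

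The choice of record decides whether these changes are called. In the 4 arrays with the same group in both records, 8 of the 9 genes fell again (22.3% of all tested genes were called lower there), with log2 changes of -2.58 for ARG1, -1.91 for ARG4, -1.48 for ARG5,6 and -0.28 for ARG2. The log2 change of ARG8 there was -0.29 (adjusted p = 0.0867 in limma). With the scanner files as attached, all 9 changes were negative, from -0.87 for ARG1 to -0.16 for ARG2, but 0 of the 9 passed (smallest adjusted p = 0.919 in limma), and 0 of the 9 had an unadjusted p under 0.05. In that record 0 of 5924 genes were called (0.00%), and 134 had an unadjusted p under 0.05.

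**Figure D3:**
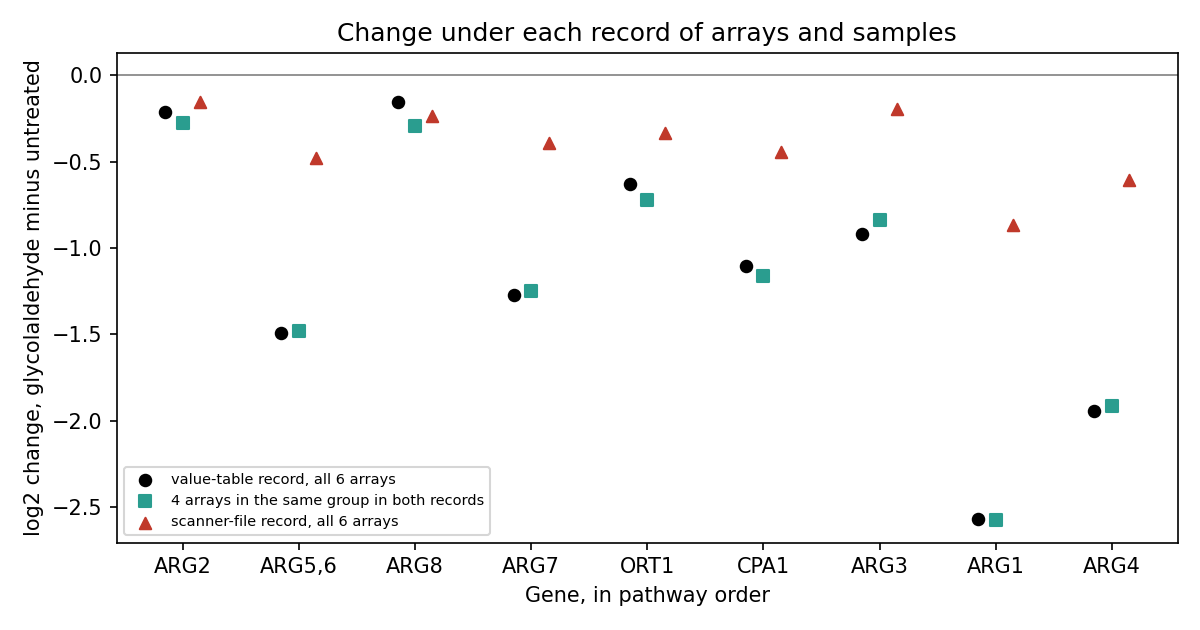
The log2 change of each gene (glycolaldehyde minus untreated, no error bars) with arrays assigned by the value table, with the 4 arrays whose group is the same in both records, and with the scanner files as attached. The first 2 lie close together, and under the scanner-file record ARG1 is at -0.87 instead of -2.57.

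The genes that control the pathway did not move as one. Among 5 regulators 2 fell and 1 rose, and the median log2 change was -0.21. Calls in both directions were common across the array, with 23.5% of all tested genes lower and 29.6% higher. MCM1, a transcription factor of many targets that also binds at arginine genes, fell by 0.79 ± 0.05 on the log2 scale, and ARG80, its partner in the arginine complex, fell by 0.75 ± 0.14 (adjusted p = 2.6e-05 and 0.0034 in limma). ARG82, an inositol polyphosphate kinase needed for that complex, rose by 0.74 ± 0.12 (adjusted p = 0.0019). ARG81, the arginine-sensing subunit, had a log2 change of -0.05 ± 0.05 (adjusted p = 0.431).

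GCN4 is controlled mainly at translation, which arrays do not measure. Its relative signal was 8.43, 8.29 and 7.25 in untreated cells and 7.09, 7.15 and 6.47 in treated cells. The groups were narrowly apart. The log2 change of -0.21 ± 0.08 just missed the threshold (adjusted p = 0.0508 in limma). It passed with the replicate block (0.00621), in the 4 arrays shared by both records (log2 change -0.30, adjusted p = 0.0202) and without untreated replicate 3 (-0.28, 0.00889). Further calls came with median scaling (-0.24, 0.0221), the scan day block (0.00201), the slide block (0.0147) and within scan day 1 (0.00224). Letting limma model a mean-variance trend also gave a call (0.0468). GCN4 did not pass on leaving out any other array (adjusted p from 0.0798 without glycolaldehyde replicate 2 to 0.163 without untreated replicate 1 in limma). With quantile normalization the change was only -0.09 (adjusted p = 0.346), and with normexp background correction it was also -0.09 (0.28).

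The main transcripts for arginine breakdown fell as well. CAR1, arginase, had relative signals of 6.88, 7.63 and 8.33 in untreated cells and 4.27, 4.33 and 4.84 in treated cells. It fell by 0.76 ± 0.09 on the log2 scale, and CAR2, ornithine aminotransferase, fell by 0.80 ± 0.09 (adjusted p = 0.000288 and 0.000232 in limma). In the list of breakdown and other uses of arginine and ornithine, these were the 2 of 11 genes that fell, while 3 rose and 6 were not called. Of all tested genes 23.5% were called lower and 29.6% higher. Over the 11 genes the median log2 change was -0.15. PUT2, a mitochondrial enzyme of proline breakdown, rose by 0.50 ± 0.05, and the spermidine synthase gene SPE3 rose by 0.24 ± 0.05 (adjusted p = 0.000207 and 0.00516). SPE1, ornithine decarboxylase of polyamine synthesis, had a log2 change of -0.22 ± 0.13 (adjusted p = 0.184). SPE1 passed with the replicate block (0.0134), the scan day block (0.00734), the slide block (0.0402) and within scan day 1 (0.00638). It also passed in the 4 arrays shared by both records (0.043) and without untreated replicate 3 (log2 change -0.35, adjusted p = 0.02). Its change was -0.13 without glycolaldehyde replicate 3 and -0.14 without untreated replicate 1 (adjusted p = 0.436 and 0.443). The number of genes of this list called lower was 5 with the replicate block, where 29.1% of all tested genes were. It was 4 without untreated replicate 3, where 1496 of all 5944 tested genes were called lower. Called higher were 2 genes of the list with quantile normalization and in the 4 arrays shared by both records, among other settings. Of all 5944 tested genes, 1727 were called higher with quantile normalization and 1566 in those 4 arrays.

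Of 8 tested genes of arginine transport, 3 fell, 1 rose and 4 did not pass (median log2 change -0.19). The shares of all tested genes were 23.5% called lower and 29.6% called higher. VBA3 was listed but too dim to be tested. CAN1, the arginine permease of the plasma membrane, had relative signals of 5.25, 5.50 and 4.92 without the aldehyde and 2.63, 2.44 and 2.40 with it, and fell by 1.07 ± 0.07 on the log2 scale. GAP1, the general amino acid permease, fell by 1.51 ± 0.09 (both adjusted p = 1.84e-05 in limma). RTC2, a vacuolar membrane protein linked to the transport of basic amino acids, fell by 2.29 ± 0.08 (adjusted p = 1.32e-06), while VBA2, a vacuolar permease of basic amino acids, rose by 0.30 ± 0.06 (adjusted p = 0.00531). With the replicate block 5 of the 8 were called lower, as were 29.1% of all tested genes.

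The enzymes that supply nitrogen and carbon to the pathway, or compete for carbamoyl phosphate, were mostly lower. Of 8 genes 6 fell, 1 rose and 1 did not pass (median log2 change -0.68), while 23.5% of all tested genes were called lower and 29.6% higher. GLN1, glutamine synthetase, had relative signals of 16.8, 16.9 and 16.6 in untreated cells and 5.67, 5.95 and 5.37 in treated cells. It fell by 1.57 ± 0.06 on the log2 scale (adjusted p = 1.47e-06 in limma). URA2, which makes and uses carbamoyl phosphate for pyrimidines, fell by 1.18 ± 0.10 (adjusted p = 7.91e-05). AGC1, the mitochondrial aspartate and glutamate carrier, rose by 0.29 ± 0.06 (adjusted p = 0.00491). Without scaling between arrays MCM1, ARG80, ARG82, CAR1, PUT2, SPE3, VBA2 and AGC1 kept their direction but did not pass (adjusted p from 0.0501 for MCM1 to 0.818 for SPE3 in limma).

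**Figure D4:**
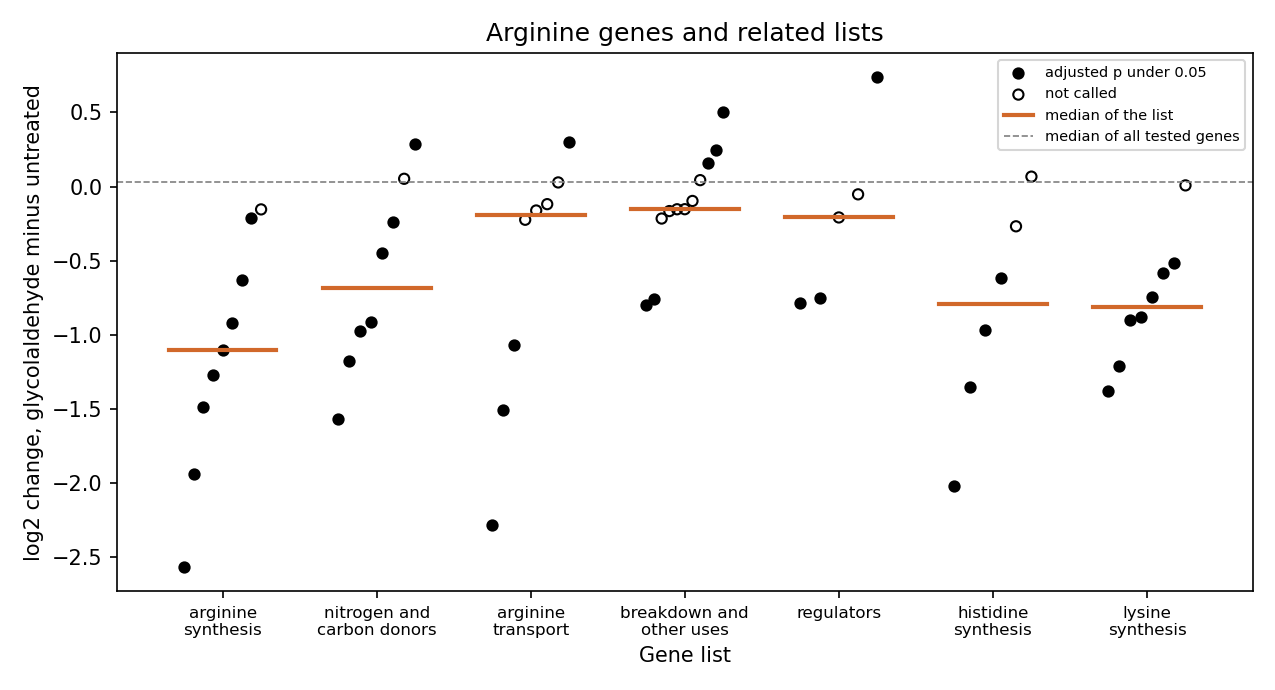
The log2 change (glycolaldehyde minus untreated) of every tested gene in the arginine synthesis list and 6 related lists; filled points have an adjusted p under 0.05, orange bars are list medians and the dashed line is the median of all tested genes (0.03). The median is -1.11 for arginine synthesis, -0.79 for histidine and -0.81 for lysine synthesis.

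Histidine and lysine synthesis, whose genes are likewise known Gcn4 targets, are the nearest pathways for comparison. In histidine synthesis 4 of 6 tested genes fell and 0 rose (median log2 change -0.79), led by HIS4 with a change of -2.02 ± 0.06 and HIS5 with -1.35 ± 0.11. HIS3, which is deleted in BY4743, was listed but too dim to be tested. In lysine synthesis 7 of 8 fell and 0 rose (median -0.81), led by LYS2 with -1.38 ± 0.07 and LYS20 with -1.22 ± 0.06. Among all tested genes 23.5% were called lower and 29.6% higher. The difference between these pathways and arginine synthesis was not tested. Each of the 3 lists held a member that did not pass, namely ARG8 for arginine, HIS2 and HIS6 for histidine and LYS5 for lysine. With the replicate block HIS2 was called lower as well (log2 change -0.27, adjusted p = 0.00238 in limma, against 0.0941 without the block), as ARG8 was.

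Values were compared with the mean of the 9 arginine genes over the 6 arrays, for the 5160 other tested genes with a standard name. The 5 most alike among them were VTC5, GCV3, ADE8, AMD2 and MEP3. Likeness was the Euclidean distance between values centred on each gene's mean, and the distances were 0.0725, 0.112, 0.118, 0.135 and 0.139 on the log2 scale. For comparison, the distance to the same mean was 0.148 for CPA1 and 0.181 for ARG7, and 1.75 for ARG1. VTC5 belongs to the vacuolar polyphosphate polymerase complex, GCV3 encodes a subunit of glycine decarboxylase, ADE8 acts in purine synthesis, AMD2 is a putative amidase and MEP3 is an ammonium permease. Their log2 changes ran from -1.07 for ADE8 to -1.21 for MEP3, a closeness that follows from picking them by likeness on these same arrays.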

How the data were processed

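Per the file headers, the authors extracted spot intensity with Agilent Feature Extraction 11.0.1.1 on array design 015072, as processed signal after background subtraction and detrending, with no normalization between arrays; flags for background, saturation and outlier spots came from the same files. In the deposited value table each intensity is linear and not centred, and equals the arithmetic mean of the probe's 7 spots (relative tolerance 1e-06). The submitters' processing notes also list R 3.0.2. No spot was saturated (0), and 0 table columns lacked a sample. The number of arrays limits the precision.

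The log2 of the table value minus the array's 75th percentile was modelled in limma 3.58.1 (lmFit, then eBayes; R 4.3.3), with group as the only term. Probes with more than 0.5 of their spots well above background on all arrays of at least 1 group were tested, 1 probe (the brightest) per identifier. Names came from the reference table of assembly R64, which 5748 probes matched; the file headers name another build, so no coordinates are given, and no sequences were used. The fit was tested on simulated data, drawn independently for each gene and array. Deviations shared between arrays, described below, were not simulated, so the fit was not tested under them.

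Groups follow titles. The members, the lists and the use of the value table were chosen with earlier results of these data known. Named were all 9 members, 11 further genes, up to 2 called genes per direction in each list and the 5 most alike genes; 1 gene of that rule is not reported here. Same-numbered samples deviated together from their group means (r = 0.321, 0.401 and 0.621, all over 0.1). Equal numbers were treated as pairs only in the replicate block, and the main fit was unpaired. Differently numbered samples of scan day 1 correlated too (untreated 1 with glycolaldehyde 2, 0.538, and untreated 2 with glycolaldehyde 1, 0.239), so the correlations do not single out equal numbers. Those across days were negative. Deviations from a group mean cancel within the group, so these negative values are not independent of the positive ones. The replicate numbers come from the titles, but no label says that equal numbers shared a culture or day. The only case for pairing is these correlations, and the replicate block is an alternative.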

Additional observations from a re-analysis of the deposited data

How the results depend on the processing

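The count of 8 arginine genes called lower ranged from 6 to 9 over the alternatives tested on the value-table record, with 0 called higher in each; it was 0 with the scanner files as attached. ARG1, ARG3, ARG4, ARG5,6, ARG7 and CPA1 stayed called under all 20 tested alternatives other than that record, ORT1 under 19 and ARG2 under 14. Not all of these alternatives could move a member. Each member had 1 probe, well above background on all 6 arrays. Averaging a gene's probes or dropping the filter on dim probes therefore left its log2 change as it was. Without scaling between arrays 171 genes were called lower and 148 higher over the whole table, against 1397 and 1761, and 6 of the 9 arginine genes were called lower. With the scanner files as attached 0 and 0 genes were called, and the median of the arginine transport list turned to a log2 change of 0.0284; that record places 2 arrays in the other group. Leaving out 1 array gave 7 to 8 arginine genes lower, 1121 to 1496 genes lower and 1361 to 1883 higher. The replicate block called 9 arginine genes, 1730 genes lower and 2174 higher; it added calls for ARG8, GCN4, SPE1 and HIS2 among the genes named here, raised the histidine genes called lower from 4 to 5 and the regulators from 2 to 3, and changed no other call of a named gene. Not every sample correlated best with its own number. The slide block takes no treatment information from untreated replicate 1, which was alone on its slide. The planned normexp correction on mean spot signals was not run, because the scanner files used here give medians. On medians, added after seeing the data, it called 8 arginine genes lower, and 1477 of all 5944 tested genes. Arrays were counted as agreeing between records when both gave the same group.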
